A study of Rattus norvegicus with 6 samples.

Results

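The genes described here are the ligands of the vascular endothelial growth factor (VEGF) family, their receptor tyrosine kinases and the neuropilin co-receptors, 9 genes of the 16876 in the deposited count table. They were named as a list: the ligand genes Vegfa, Vegfb, Vegfc and Pgf, the receptor genes Flt1, Kdr and Flt4, and the co-receptor genes Nrp1 and Nrp2. All 9 were found in the table, and 8 passed the filter on low counts (Flt4 did not). They were chosen by family membership with the fold changes and calls of this same comparison known. The values of these 9 genes are therefore a description: the outcome of the fit is given as called or not called, and no p-value is printed for them.

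RNA was sequenced from 3 libraries labelled primary cultured rat microglia exposed for 24 h to PSNPs, polystyrene nanoplastics, and from 3 exposed for 24 h to IR-813, a near-infrared dye. The labels do not give strain, age, dose or the number of animals behind a culture, nor whether the nanoplastics carried the dye. Per the labels, microglia were shaken off mixed co-cultures grown in serum-containing medium. The table names the IR-813 columns con, and no untreated library was analysed here, so every direction is that of PSNPs relative to IR-813. Nothing in the labels says that replicates were separate cultures, so the tests measure the spread between these libraries, which may be technical.

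VEGF-A is the main inducer of vessel growth and permeability, and it signals through the kinase VEGFR2, encoded by Kdr. VEGFR1, encoded by Flt1, binds VEGF-A tightly but has weak kinase activity, and a secreted form of it acts as a trap. VEGFR1 is also the receptor of VEGF-B and of placental growth factor, encoded by Pgf, and it is carried by monocytes, macrophages and microglia. VEGF-C acts mainly through VEGFR3, encoded by Flt4, which is best known from lymphatic vessels. Neuropilins have no kinase domain and bind both VEGF ligands and class 3 semaphorins. In brain, Vegfa is expressed by astrocytes among other cells, whereas Kdr is mostly endothelial.

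Library depth lay between 19166605 and 22553507 counts. Levels are given as CPM, counts scaled to a common library total with TMM factors, and a gene was called at a Benjamini-Hochberg adjusted p under 0.05 by edgeR's quasi-likelihood test over 11679 genes. Of these, 2439 were called higher and 2351 lower (1943 and 2852 with scaling by library size alone). PSNPs replicate 3 stood apart, with a correlation of log CPM of at most 0.974 with PSNPs replicates 1 and 2, which correlated at 0.995 with each other across genes. Gfap, an astrocyte gene, averaged 3411 ± 243 CPM with PSNPs and 2950 ± 545 CPM with IR-813, and the myelin gene Mbp 1562 ± 184 and 2090 ± 174 CPM (SD, n = 3 each). The microglia gene Aif1 averaged 21.4 ± 4.66 CPM with PSNPs and 50.4 ± 10.8 CPM with IR-813, and P2ry12 1.32 ± 0.289 and 6.47 ± 1.09 CPM. The libraries labelled microglia thus held abundant astrocyte and myelin transcripts.

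The stretches before the transcript starts of the 3 called members are shown first, since these are the genes whose transcript level differed. Each is the 250 bases 5′ of a RefSeq start in GRCr8, a build other than that named for the counts (mRatBN7.2), in lower case, with the letters of selected motifs in capitals. GC boxes (GGGCGG on either strand, the motif of SP1) are in capitals for Vegfa and Pgf, and a cAMP response element (TGACGTCA) and a TATA box (TATAAA) for Flt1.
Vegfa, chr9:22452604-22452853, plus strand: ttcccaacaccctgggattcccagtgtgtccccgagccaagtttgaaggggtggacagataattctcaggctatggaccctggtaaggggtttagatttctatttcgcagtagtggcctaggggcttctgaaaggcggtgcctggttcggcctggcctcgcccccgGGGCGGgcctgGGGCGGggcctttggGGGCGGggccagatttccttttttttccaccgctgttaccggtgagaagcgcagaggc
Flt1, chr12:12333180-12333429, plus strand: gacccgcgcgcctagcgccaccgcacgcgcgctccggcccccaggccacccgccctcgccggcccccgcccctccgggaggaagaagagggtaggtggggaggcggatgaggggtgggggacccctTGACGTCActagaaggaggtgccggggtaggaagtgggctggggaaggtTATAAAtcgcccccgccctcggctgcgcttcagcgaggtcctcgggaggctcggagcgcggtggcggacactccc
Pgf, chr6:110557748-110557997, minus strand: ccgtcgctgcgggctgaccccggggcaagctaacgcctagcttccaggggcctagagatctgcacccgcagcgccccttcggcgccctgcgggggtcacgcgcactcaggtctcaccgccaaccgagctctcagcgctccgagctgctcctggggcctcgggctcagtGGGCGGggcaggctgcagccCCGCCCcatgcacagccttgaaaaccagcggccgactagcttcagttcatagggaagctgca

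All 9 members matched the promoter table by symbol, with 2 entries for Vegfa, of which the first is printed. The first Vegfa window held 3 GC boxes and the second (chr9:22460028-22460277) 0, the Flt1 window 3 and the Pgf window 2, and 30.5% of all 33469 windows held at least 1. The cAMP response element was present in the Flt1 window and in none of the other members' windows, and in 1.59% of all windows. The TATA box likewise was present in the Flt1 window alone among the members, and in 12.9% of all windows. The hypoxia response core was searched as ACGTG, found in no member's window and in 16.6% of all, and as GCGTG, found in 25.9% of all. GCGTG occurred once in the windows of Vegfb, Pgf, Flt1, Nrp1 and Nrp2 and 2 times in that of Kdr. The composite CHOP and ATF4 letters TGATGNAA, found in 3.4% of windows, were in none of the members' windows. All motifs were searched on both strands. These matches are letters in a window and not shown sites. Bases outside the windows were not searched, so a motif absent here may lie elsewhere at a gene.

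Of the 8 members in the fit, 3 were called: Vegfa was lower with PSNPs, and Flt1 and Pgf were higher. Over all tested genes 41.0% were called, 20.9% higher and 20.1% lower, and nothing is read from the members' count against that. Thus 1 ligand gene fell, and another ligand gene and a receptor gene rose. Vegfb, Vegfc, Kdr, Nrp1 and Nrp2 were not called. The groups of libraries did not overlap for 4 of the 8 (Vegfa, Vegfc, Pgf and Flt1), where the share over all tested genes was 61.4%.

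Vegfa stood at 47.8, 53.4 and 51.0 CPM in the 3 PSNPs libraries, against 195, 181 and 144 CPM in the IR-813 libraries. Every PSNPs library was far below every IR-813 library, and the PSNPs libraries lay close together, while IR-813 replicate 3 was the lowest of its group. The means were 50.7 ± 2.83 CPM with PSNPs and 173 ± 26.5 CPM with IR-813 (SD, n = 3 each), and the log2 fold change was −1.77 ± 0.13 (estimate ± SE). Leaving out any 1 library gave values between −1.89 and −1.68. The counts behind these levels were between 977 and 1039 with PSNPs and between 3104 and 4353 with IR-813. The table gives 1 value per gene, so splice forms of Vegfa, which differ in how they bind matrix and neuropilin, are not separated.

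Vegfb, whose product binds VEGFR1 and not VEGFR2, was level across the libraries. It had 48.3, 48.2 and 50.2 CPM with PSNPs, against 48.1, 52.2 and 49.2 CPM with IR-813. The groups overlapped almost wholly, and the log2 fold change of −0.03 ± 0.08 was smaller than its error. Its SD over 3 libraries was 1.15 CPM with PSNPs and 2.11 CPM with IR-813.

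Pgf encodes placental growth factor, which also binds VEGFR1 alone of the kinases. It stood at 1.98, 1.54 and 2.66 CPM with PSNPs, against 0.895, 0.745 and 0.786 CPM with IR-813. The groups did not overlap and Pgf was called higher, with a log2 fold change of 1.34 ± 0.26, but the level was low: 43, 29 and 51 counts with PSNPs and 20, 16 and 17 counts with IR-813. On the deposited log2 scale, which carries a pseudocount of 1, its difference was 0.63. Vegfc, the ligand of VEGFR3, had 3.95, 3.50 and 2.77 CPM with PSNPs, against 4.52, 4.19 and 4.49 CPM with IR-813. All PSNPs libraries were below all IR-813 libraries, yet Vegfc was not called (−0.37 ± 0.17). The remaining ligand, Vegfd, which is no member, was listed under its older symbol Figf with between 1 and 5 counts in every library, too few for the fit.

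**Figure D1:**
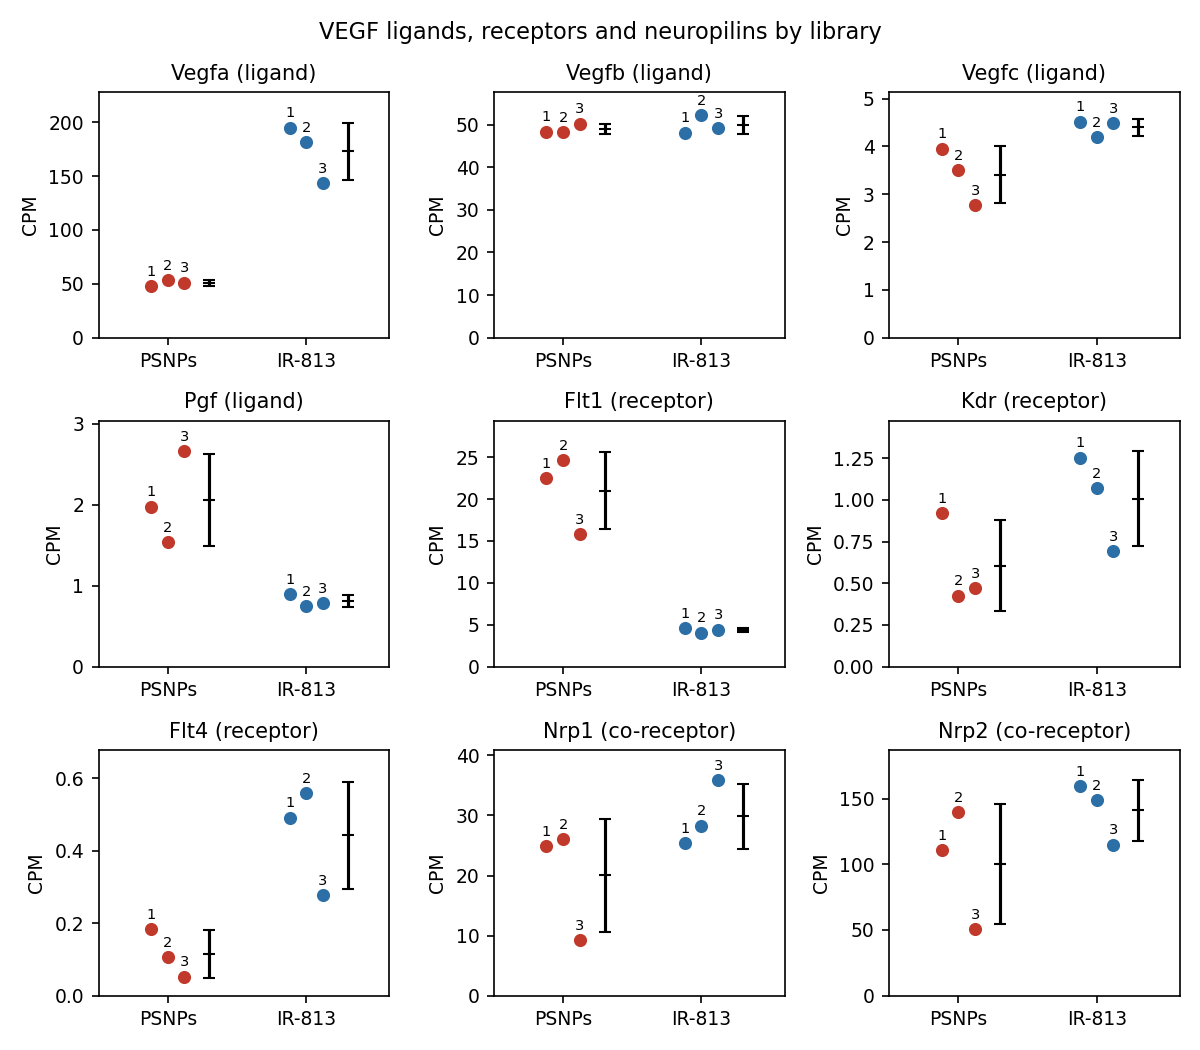
CPM of each of the 9 members in every library (y axes start at 0; points are libraries numbered by replicate; dash and bar, mean ± SD, n = 3), with PSNPs left and IR-813 right. Vegfa lay at 47.8 to 53.4 CPM with PSNPs and 144 to 195 CPM with IR-813, Flt1 the other way round at 15.8 to 24.6 and 4.05 to 4.56 CPM, and PSNPs replicate 3 was the low point of Nrp1 and Nrp2.

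Among the receptors, Flt1 had the largest fold change of the 8 members in the fit. It stood at 22.5, 24.6 and 15.8 CPM in the PSNPs libraries, against 4.56, 4.05 and 4.39 CPM in the IR-813 libraries. The lowest PSNPs library, replicate 3, was still well above the highest IR-813 library. The means were 21.0 ± 4.60 CPM with PSNPs and 4.34 ± 0.261 CPM with IR-813 (SD, n = 3 each), and the log2 fold change was 2.27 ± 0.19. It was 2.44 without PSNPs replicate 3, and between 2.15 and 2.31 on leaving out any other library. On the deposited log2 scale the difference was 1.30. Flt1 ranked 73 from the top of 11679 genes by log2 fold change, and Vegfa 446 from the bottom. Whether the Flt1 counts came from the membrane or the secreted form of VEGFR1 cannot be read from a value per gene.

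Kdr and Flt4 were near the floor of detection. Kdr, the gene of VEGFR2, had 20, 8 and 9 counts with PSNPs, against 28, 23 and 15 with IR-813. That is 0.919, 0.425 and 0.470 CPM with PSNPs and 1.25, 1.07 and 0.694 CPM with IR-813, and the groups overlapped. Kdr was not called (−0.71 ± 0.38), and its fold change was −1.16 without PSNPs replicate 1 and between −0.92 and −0.51 on leaving out any other library. Flt4, the gene of VEGFR3, had 4, 2 and 1 counts with PSNPs, against 11, 12 and 6 with IR-813. All PSNPs counts were below all IR-813 counts, but Flt4 did not pass the count filter. It entered the fit under 6 alternatives and had log2 fold changes between −2.40 and −1.55 there.

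In the neuropilin genes 1 PSNPs library stood apart from the other PSNPs libraries. Nrp1 stood at 24.9, 26.1 and 9.24 CPM with PSNPs, against 25.4, 28.3 and 35.9 CPM with IR-813. Nrp2 stood at 111, 139.7 and 50.5 CPM with PSNPs, against 159, 149 and 115 CPM with IR-813. In both genes PSNPs replicate 3 was far below the other PSNPs libraries, and without it the PSNPs values were close to or within the IR-813 range. Neither was called: the log2 fold change was −0.57 ± 0.37 for Nrp1 and −0.49 ± 0.34 for Nrp2. Without PSNPs replicate 3 these became −0.23 ± 0.14 and −0.17 ± 0.15.

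**Figure D2:**
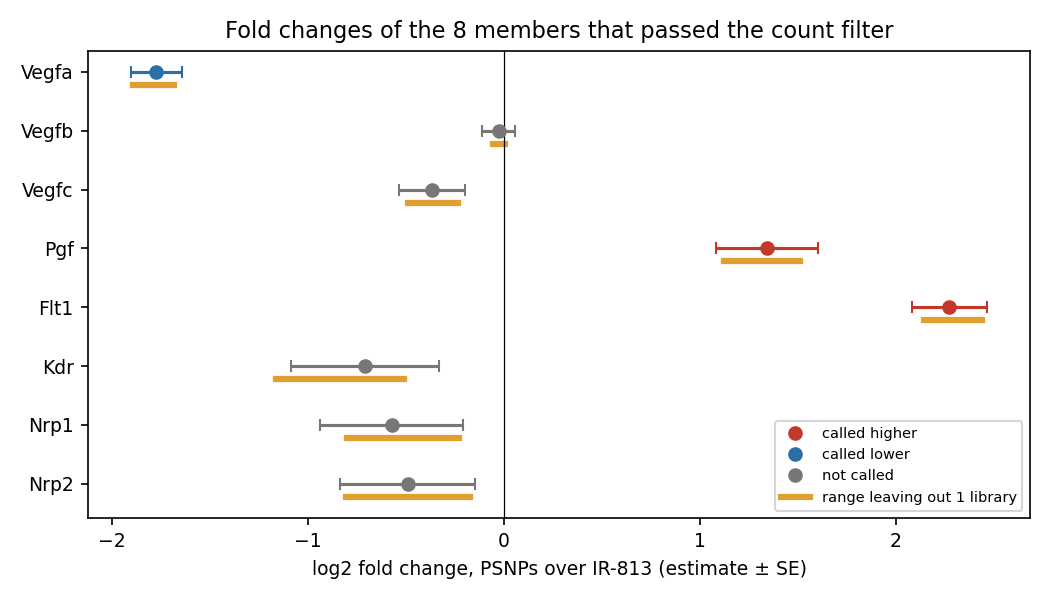
Log2 fold change of PSNPs over IR-813 for the 8 members in the fit (x axis; point and bar, estimate ± SE; orange bar, range on leaving out each of the 6 libraries in turn). Vegfa (−1.77), Pgf (1.34) and Flt1 (2.27) were called, and the ranges of Nrp1 and Nrp2 reached −0.23 and −0.17 without PSNPs replicate 3.

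CPM does not take account of transcript length, so levels of different genes were compared on the deposited log2 values with the log and a pseudocount of 1 removed, taken here as a per-length scale with no stated unit. With PSNPs the order of mean levels was Nrp2 (30.3 ± 13.4), Vegfb (29.3 ± 1.33), Vegfa (17.1 ± 1.08), Nrp1 (5.24 ± 2.39), Flt1 (3.09 ± 0.623), Vegfc (2.36 ± 0.371) and Pgf (1.44 ± 0.427), with Kdr (0.102 ± 0.0451) and Flt4 (0.0261 ± 0.0147) last. The libraries of Nrp2 overlapped with those of Vegfb, those of Nrp1 with those of Flt1, and those of Flt1 with those of Vegfc, so the ranges of these neighbours were not separate. Within each PSNPs library Nrp1 was nevertheless above Flt1 and Flt1 above Vegfc, while Nrp2 was below Vegfb in PSNPs replicate 3 alone. In that library Nrp2 (15.7) was also below Vegfa (18.0). With IR-813 Vegfa was first at 57.5 ± 9.10, ahead of Nrp2 (42.7 ± 7.10), Vegfb (29.7 ± 1.27), Nrp1 (7.80 ± 1.40), Vegfc (3.04 ± 0.123), Flt1 (0.647 ± 0.0397), Pgf (0.560 ± 0.0535), Kdr (0.169 ± 0.0481) and Flt4 (0.102 ± 0.0337). There the neighbours Vegfa and Nrp2 overlapped, as did Flt1 and Pgf, and Kdr and Flt4, although the first of each pair was the higher in every IR-813 library.

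On that per-length scale Vegfa made up 34.1% ± 1.30 of the summed level of the 4 ligands with PSNPs and 63.1% ± 3.86 with IR-813 (SD, n = 3 each). Vegfb made up 58.3% ± 0.634 with PSNPs and 32.9% ± 3.49 with IR-813, although its own level was about the same. On this scale the highest ligand was Vegfb in every PSNPs library and Vegfa in every IR-813 library; in CPM, which ignores length, Vegfa was above Vegfb in PSNPs replicates 2 and 3 as well. The reading of the scale as per length is only weakly supported. Pgf made up 2.85% ± 0.736 of the ligands with PSNPs and 0.620% ± 0.0687 with IR-813. The ratio of Vegfa to Flt1 was 4.85, 4.88 and 7.50 in the PSNPs libraries, against 95.8, 100.3 and 71.5 in the IR-813 libraries. The ratio of Nrp2 to Nrp1 was 5.90 ± 0.647 with PSNPs and 5.69 ± 1.81 with IR-813. It was 5.16, 6.21 and 6.33 in the PSNPs libraries and 7.26, 6.09 and 3.71 in the IR-813 libraries, so the groups overlapped and IR-813 replicate 3 was the lowest.

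**Figure D3:**
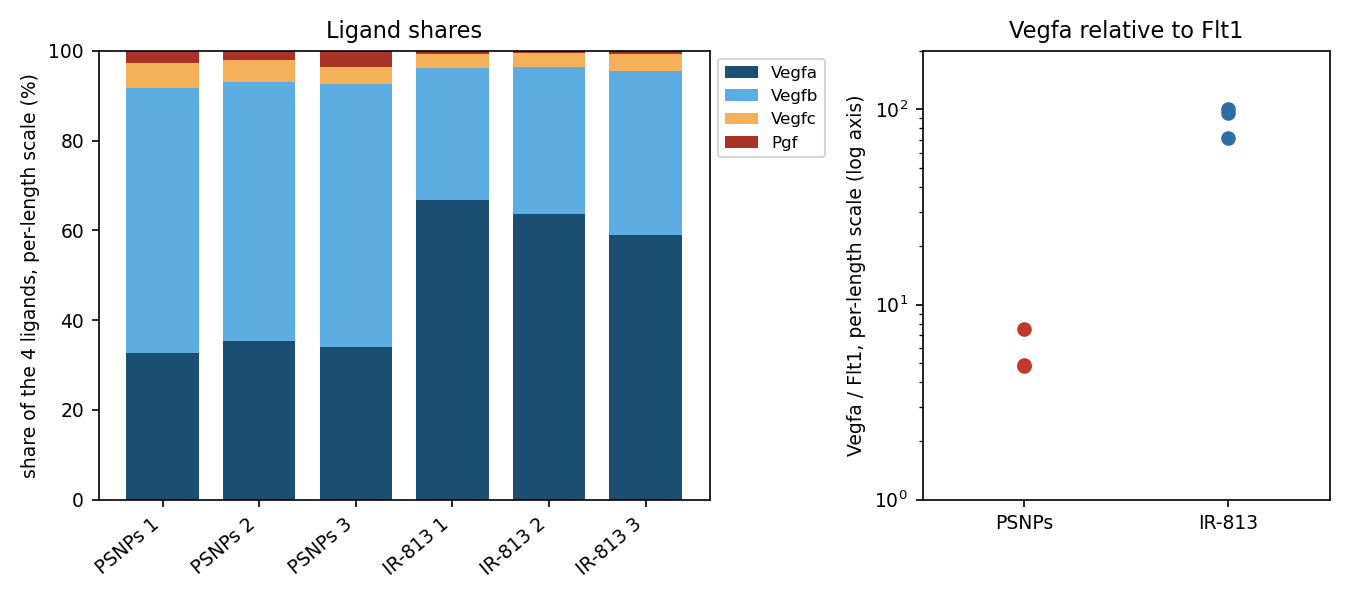
Left, share of each ligand in the summed per-length level of the 4 ligands (bars from 0 to 100%, 1 per library, PSNPs first). Right, ratio of Vegfa to Flt1 on the same scale (log axis, points are libraries). Vegfa held 34.1% of the ligand level with PSNPs and 63.1% with IR-813, and its ratio to Flt1 was 4.85 to 7.50 with PSNPs and 71.5 to 100.3 with IR-813.

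Genes around the VEGF system were taken as lists by role, of which 8 are described. In bulk RNA, fewer cells of a type and less RNA per cell cannot be told apart, and this holds for each list. The median log2 fold change of all tested genes was −0.01, and the called share over all of them was the 41.0% given above. Over the 8 lists 41 genes were called higher and 43 lower, and no list was tested as a set.

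Of 15 tested regulators of Vegfa transcription and mRNA stability, 3 were called higher and 4 lower (median 0.03). Atf4, the transcription factor of the integrated stress response, which activates Vegfa in other systems, fell to 208 ± 32.6 CPM with PSNPs, against 515 ± 65.1 CPM with IR-813 (SD, n = 3 each; edgeR adjusted p = 7.68e-04). Ddit3, which encodes CHOP, fell by 1.39 ± 0.17 and Ern1, the stress sensor IRE1, by 1.88 ± 0.33 on the log2 scale. Atf6 (−1.43 ± 0.44), another sensor of unfolded protein, fell as well, while Xbp1, a transcription factor gene of the unfolded protein response, was not called (0.12 ± 0.11). For Atf6, PSNPs replicate 3 was at 24.1 CPM, against 82.9 and 84.7 CPM in PSNPs replicates 1 and 2. For Ern1 it was at 4.49 CPM, against 10.3 and 11.5 CPM. In both genes every PSNPs library was below every IR-813 library. The genes called higher, Hnrnpl, Zfp36 and Stat3, had log2 fold changes of 0.29, 0.34 and 0.35; these, Atf6 and Xbp1 were named after their values were seen. None of the 3 stayed called in the fits without PSNPs replicate 1 or without any 1 of the IR-813 replicates, with library size alone or with the replicate block; 1 gene of the list was higher without PSNPs replicate 2 and 5 without PSNPs replicate 3.

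The subunits and hydroxylases of hypoxia-inducible factor (HIF), the best-known activator of Vegfa, gave 2 higher and 2 lower genes of 10 tested (median −0.06). Egln3, an oxygen-sensing prolyl hydroxylase that is itself a HIF target, rose by 1.25 ± 0.10 on the log2 scale, to 215 ± 10.1 CPM with PSNPs, against 90.5 ± 9.55 CPM with IR-813 (edgeR adjusted p = 2.13e-04). Its relative Egln2 rose by 0.40 ± 0.10, and the coactivator gene Crebbp fell by 0.57 ± 0.12. Hif1a, the inducible subunit, fell by 0.47 ± 0.15 with an edgeR adjusted p of 0.0385, which lay between 0.00244 and 0.122 over 13 alternatives and above 0.05 without PSNPs replicate 1 or without any 1 of the IR-813 replicates. Epas1, the subunit HIF-2α, was not called (0.58 ± 0.22), but it was called by DESeq2 at the same fold change, and at 0.82 without PSNPs replicate 3. Egln2 was not called without IR-813 replicate 1 or 2. The list had 1 lower gene in each fit without PSNPs replicate 1 or any IR-813 replicate, 4 higher genes without PSNPs replicate 3, and 1 higher gene without IR-813 replicate 1 or 2.

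HIF targets other than Vegfa and Flt1 went both ways, with 12 called higher and 5 lower of 33 tested (median 0.08). Among the higher ones, the lactate dehydrogenase gene Ldha stood at 1108 ± 143 CPM with PSNPs and 575 ± 17.2 CPM with IR-813, and the phosphoglycerate kinase gene Pgk1 at 587 ± 76.5 and 352 ± 20.6 CPM. Called higher as well were the glycolysis genes Gpi (0.45), Pfkl (0.64), Aldoa (0.37), Tpi1 (0.91), Gapdh (0.55), Pgam1 (0.36) and Eno1 (0.78). Hk1 (0.08) and Pfkp (−0.25), which also encode enzymes of glycolysis, were not called. The genes in both of these sentences were named after their values were seen. Tpi1 was low among them, with 42, 38 and 37 counts with PSNPs, against 22, 15 and 31 with IR-813. Bnip3l, a mitophagy receptor gene, rose by 0.70 ± 0.08 on the log2 scale. Among the 5 lower ones were the glucose transporter gene Slc2a1 (−0.46 ± 0.09), the lipoprotein receptor gene Vldlr (−1.84 ± 0.16), the hexokinase gene Hk2 (−1.54) and the adrenomedullin gene Adm (−1.19); Hk2 and Adm were named after their values were seen. By edgeR's quasi-likelihood test the adjusted p was 9.47e-04 for Ldha and 3.07e-04 for Vldlr. The list had 8 lower genes without PSNPs replicate 3, and 7 and 6 higher genes on leaving out IR-813 replicate 1 or 2, in that order.

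Proteins that cleave, bind or release VEGF ligands outside the cell showed 7 higher and 8 lower genes of 23 tested (median −0.02). Thbs1, which encodes the matrix protein thrombospondin-1, an inhibitor of vessel growth that binds VEGF-A, fell to 8.85 ± 1.64 CPM with PSNPs, against 163 ± 36.7 CPM with IR-813 (SD, n = 3 each; edgeR adjusted p = 1.01e-04). The matrix-associated genes Ccn2 and Ccn1, listed under their older symbols Ctgf and Cyr61, fell by 2.74 ± 0.16 and 1.63 ± 0.11 on the log2 scale. CCN2 protein binds VEGF-A. Of the genes of metalloproteinases, enzymes that degrade matrix, Mmp9 (1.91 ± 0.22) and Mmp14 (1.00 ± 0.09) rose, as did Mmp2, at 24.6 ± 0.851 CPM with PSNPs and 8.71 ± 1.62 CPM with IR-813, whereas Mmp3 (−1.97 ± 0.23) fell. The list also holds metalloproteinase genes of the ADAMTS family. Of these, Adamts1 (1.23 ± 0.24) rose, whereas Adamts3 (−1.19 ± 0.32) and Adamts14 (−0.64 ± 0.14) fell. All these metalloproteinase genes were named after their values were seen.

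Neuropilins also serve class 3 semaphorins, and of 11 tested semaphorin, plexin and L1-family genes 1 was called higher and 3 lower (median −0.25). Sema3f, whose product binds neuropilin-2, rose to 31.7 ± 1.02 CPM with PSNPs, against 8.09 ± 1.13 CPM with IR-813 (edgeR adjusted p = 1.29e-04). Sema3c fell by 1.49 ± 0.23 on the log2 scale, the adhesion gene L1cam by 2.86 ± 0.21 and Sema3d (named after its value was seen) by 2.67 ± 0.44. L1cam had 13, 14 and 9 counts with PSNPs, against 101, 100 and 88 with IR-813. For Sema3d, PSNPs replicate 3 was at 1.77 CPM, against 6.53 and 7.32 CPM in PSNPs replicates 1 and 2. Sema3a, whose product binds neuropilin-1, stood at 37.8, 44.3 and 14.5 CPM with PSNPs, against 26.9, 25.4 and 18.5 CPM with IR-813. The groups overlapped through PSNPs replicate 3, the library that was also low for Nrp1 and Nrp2. Sema3a was not called (0.45 ± 0.38), but was at 0.80 and called without PSNPs replicate 3, where 3 genes of the list were higher. Plxna1, a plexin gene, was not analysed here.

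**Figure D4:**
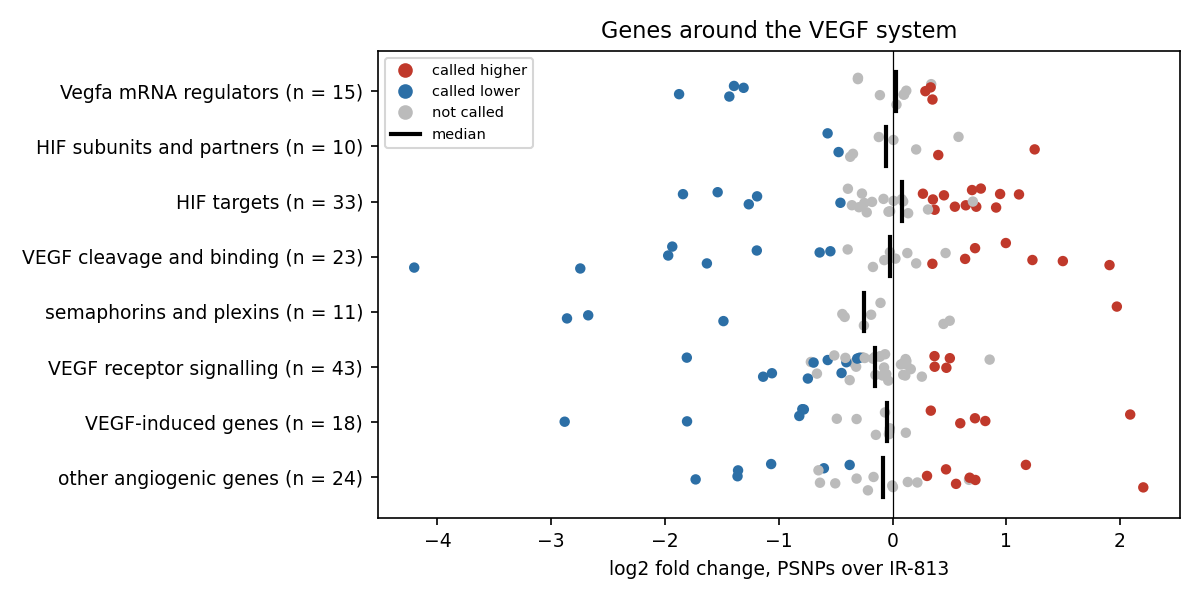
Log2 fold change of PSNPs over IR-813 (x axis) for each tested gene of the 8 lists around the VEGF system (points; red, called higher; blue, called lower; grey, not called; black bar, median; vertical jitter has no meaning). Every list held called genes in both directions, and the medians lay between −0.25 and 0.08.

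Of 43 tested components of VEGF receptor signalling, 4 were called higher and 10 lower (median −0.15). Prkcb, a protein kinase C gene, fell by 1.81 ± 0.22 on the log2 scale (edgeR adjusted p = 0.00102), the Src-family kinase gene Fyn by 0.74 ± 0.10 and the adaptor gene Shc2 by 1.06 ± 0.11. The 4 higher ones, named after their values were seen, were Pik3r2 (0.50), Shc1 (0.47), Prkcd (0.37) and Mapk3 (0.37). Genes induced by VEGF in endothelium were split, with 5 higher and 5 lower of 18 tested (median −0.05). Dusp5, an ERK phosphatase, fell to 13.0 ± 1.97 CPM with PSNPs, against 96.0 ± 26.0 CPM with IR-813 (edgeR adjusted p = 2.49e-04), and the calcineurin regulator gene Rcan1 fell by 0.78 ± 0.10. Angpt2, an angiopoietin gene, rose by 2.09 ± 0.30, at levels of 1.26 ± 0.0564 CPM with PSNPs and 0.292 ± 0.121 CPM with IR-813. The signalling list had 10 higher genes without PSNPs replicate 3, 2 higher and 6 lower without IR-813 replicate 1, and 5 lower without IR-813 replicate 2; the induced list had 3 lower genes on leaving out IR-813 replicate 1 or 2.

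Other angiogenic ligands and receptors gave 7 higher and 6 lower genes of 24 tested (median −0.08). Pdgfra, a platelet-derived growth factor receptor gene that also marks oligodendrocyte progenitors, fell by 1.73 ± 0.18 on the log2 scale (edgeR adjusted p = 6.24e-04), and Eng, the co-receptor endoglin, by 1.36 ± 0.17. S1pr1, a sphingosine-1-phosphate receptor gene, rose by 0.68 ± 0.09. Without PSNPs replicate 3 there were 11 higher genes in this list.

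Markers of several cell types moved with the treatment, and their part in the values of the VEGF genes was not tested. Beside the counts of called markers here and below, 20.9% of all tested genes were called higher and 20.1% lower. The 10 microglia markers summed to between 682.5 and 879.9 CPM with PSNPs and between 1064 and 1396 CPM with IR-813, with 7 called lower and 0 higher. The 12 oligodendrocyte-lineage markers summed to between 3422 and 3932 CPM with PSNPs and between 6359 and 7402 CPM with IR-813, and all 12 were called lower, Mbp no longer in 6 of 13 alternatives. The 10 astrocyte markers summed to between 9799 and 11030 CPM with PSNPs and between 7643 and 9916 CPM with IR-813, with 6 called higher and 0 lower. The 12 neuron markers summed to between 164.9 and 197.8 CPM with PSNPs and between 386 and 399.7 CPM with IR-813, with 7 of the 10 tested called lower.

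Markers of endothelial cells, in which Kdr and Flt1 are typically high, went both ways. The 15 endothelial markers in the table summed to between 45.0 and 54.2 CPM with PSNPs and between 76.7 and 97.3 CPM with IR-813, with 1 called higher and 3 lower of 9 tested. The higher one, Egfl7 (named after its value was seen), averaged 10.9 ± 1.28 CPM with PSNPs and 5.81 ± 0.154 CPM with IR-813. Most of the difference between the sums came from 1 of the lower ones, Eng. It averaged 23.4 ± 4.09 CPM with PSNPs and 59.9 ± 8.45 CPM with IR-813. Pecam1 averaged 1.27 ± 0.436 CPM with PSNPs and 2.59 ± 0.491 CPM with IR-813 (edgeR adjusted p = 0.0290, between 0.0208 and 0.106 over 13 alternatives and above 0.05 with the replicate block or without PSNPs replicate 2 or IR-813 replicate 2 or 3), and Cdh5 0.729 ± 0.361 and 1.12 ± 0.0759 CPM. Cldn5 had 1 count in PSNPs replicate 1 and 0 in the other libraries, and Emcn, Sox17 and Robo4 were listed at 0 in all 6. The fibroblast gene Col1a2 was also listed at 0 in all 6 while Col1a1 had between 324 and 1078 counts, so a row of zeros may be a gene that was not counted. Pericyte, smooth muscle and fibroblast markers summed to between 185.8 and 215.8 CPM with PSNPs and between 437 and 551.3 CPM with IR-813, with 2 called higher and 3 lower of 7 tested. Most of the difference between these sums came from Tagln, 1 of the lower ones. It averaged 93.4 ± 19.6 CPM with PSNPs and 329 ± 36.7 CPM with IR-813. The higher ones were Kcnj8 and Myh11. These genes were named after their values were seen. Markers of infiltrating myeloid and lymphoid cells, 6 of 7 listed being in the table, stayed at or under 0.159 CPM in sum in every library. Of these, 0 passed the count filter, and here too genes that were not counted cannot be told from absent cells.

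Likeness to Vegfa was measured as the root mean square difference of mean-centred log2 CPM over the 6 libraries, among tested genes with a mean of at least 5 CPM. The nearest was Atf5, a transcription factor gene of the stress response, at 0.0641. It stood at 42.2, 46.8 and 49.9 CPM with PSNPs, against 187, 167 and 139.4 CPM with IR-813. As for Vegfa, IR-813 replicate 3 was the lowest of its group, but Atf5 was picked for likeness over these same libraries. The next were Cdr2 (0.0711), Dusp10, a phosphatase of stress-activated MAP kinases (0.0951), Casp4, an inflammatory caspase gene (0.0957) and Kctd4 (0.103). Which genes come nearest depends on the libraries used: leaving out 1 library, between 1 and 4 of these 5 were again among the nearest 5, with 1 without IR-813 replicate 3.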

How the data were processed

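For the 6 libraries the authors deposited raw counts, 1 row a gene symbol, from which CPM and tests were computed. They also deposited log2 expression values in 1 file a library; per the labels, how these were scaled is not stated. Per the submitters' processing notes, bcl2fastq and the mRatBN7.2 build were used; aligner, counter, annotation and strandedness are not named in any source at hand, so reads shared with overlapping or antisense genes cannot be assigned with certainty. Groups and replicate numbers came from the sample titles. After filterByExpr and TMM scaling, the quasi-likelihood test of edgeR 4.0.16 (R 4.3.3) was fitted with treatment as its single term, and p-values were adjusted by Benjamini-Hochberg over all genes tested at a threshold of 0.05. Dividing the absolute log2 fold change by √F gave the SE. Alternatives were DESeq2 1.42.0, limma 3.58.1 on the deposited log2 values, other scalings and filters, the replicate number as a block, and each library left out. The procedure was tested on simulated counts, in which all genes shared the same dispersion setting and no library stood apart. That run therefore does not show how the procedure handles a library such as PSNPs replicate 3.

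The unlogged deposited value was proportional to the count, given a gene and a library factor, within 0.05 log2 units for at least 99.15% of 9774 genes with at least 50 counts in every library. The gene factor had a Spearman correlation of 0.518 with gene span across 9129 genes, which is weak support for reading it as a length. Promoter sequences are RefSeq's, build GRCr8, matched by symbol. Listed genes found under an older symbol were used under it, and those not found were not analysed here.

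The members and the lists were chosen with earlier results of these data known. Named genes were the members, the 3 genes with the smallest p of each of the 8 lists, the 5 genes nearest to Vegfa, and a few fixed markers and regulators. Kdr, Flt4 and Pgf had the lowest counts of the members. No molecular identifiers are mentioned, so counts may include PCR copies. One gene of the lists is counted but not reported by name here.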

Additional observations from a re-analysis of the deposited data

How the results depend on the processing

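Vegfa stayed called lower and Flt1 and Pgf stayed called higher in all 13 alternatives, and Vegfb, Vegfc, Kdr, Nrp1 and Nrp2 were called in none. The number of members called lower was 2 with no filter on low counts and between 1 and 2 on leaving out 1 library; the added gene was Flt4, which entered those fits. Leaving out 1 library gave between 2812 and 7069 called genes in all, 1339 to 3591 higher and 1473 to 3478 lower; the low ends were without IR-813 replicate 2 and the high ends without PSNPs replicate 3. Over the 8 lists it gave between 25 and 60 higher genes. Vegfb, whose fold change was near 0, reversed to 0.0068 without IR-813 replicate 2; on leaving out 1 library it lay between −0.053 and 0.0068. The deposited log2 scale understates low genes: Angpt2 was at 0.48 and L1cam at −0.74 there. Of the 5 genes nearest to Vegfa, 3 were again among the nearest 5 on the deposited log2 values and between 1 and 4 on leaving out 1 library; the cause was not tested.

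With the replicate number as a block, 4159 genes were called, 2035 higher and 2124 lower, and 3 members, the same 3 genes. Deviations of same-numbered libraries correlated at −0.0058, 0.014 and 0.12 over genes, so the numbers were not taken to pair the samples, and not every library correlated best with its own number.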
